A study of Homo sapiens with 8 samples.

Results

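RNA levels of the H929 library labelled knockdown of CHEK1 were set against the range spanned by the other 3 H929 libraries, gene by gene. A gene counted as outside that range when its level, as FPKM plus 1, lay at least 1.5-fold above the highest or below the lowest of the other 3. Of 14905 genes compared, 422 were outside, 248 higher and 174 lower. H929 and ARP1 are established human lines of multiple myeloma, the malignancy of antibody-secreting plasma cells. CHEK1 encodes the checkpoint kinase CHK1, which delays mitosis while DNA is damaged or incompletely copied. The series held 8 libraries, 1 for each line and genotype, so a comparison within H929 has no replicates and sizes are reported with no p-value. In H929 the libraries were labelled knockdown of CHEK1, control of knockdown, overexpression of CHEK1 and control of overexpression, and the same 4 genotypes of ARP1 are given beside them. Neither the tool used to raise or lower CHEK1 nor whether a line was 1 clone or a pool is stated in the labels, and nothing marks a batch or a date.

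Many of the genes that stood highest in the library labelled knockdown belong to the integrated stress response. In this pathway, kinases that sense amino acid shortage, unfolded protein in the endoplasmic reticulum, missing heme or viral RNA phosphorylate an initiation factor, which slows most protein synthesis while favouring translation of the transcription factor ATF4. ATF4 then raises genes for amino acid synthesis, amino acid uptake and the loading of transfer RNA, together with regulators such as ATF3, CHAC1, TRIB3 and SESN2. Plasma cells, which secrete large amounts of antibody, use this pathway alongside the unfolded protein response.

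The 4 H929 libraries had a summed FPKM of 631871 to 649959 (fragments per kilobase, scaled for library size), and 13084 to 13426 genes reached an FPKM of 1. The files state no read depth. CHEK1 (ENSG00000149554, chromosome 11, 125625136 to 125676255, plus strand, GRCh38) stood at 84.8 FPKM in the library labelled knockdown, against 80.7 in the control of knockdown, 107 in the overexpression library and 81.6 in the control of overexpression. The library labelled knockdown thus lay inside the range of the other 3, and its label was not borne out by a lower CHEK1 level. Its transcript CHEK1-203 held 18.1 FPKM, against 18.0, 25.4 and 21.3 in the control of knockdown, the overexpression library and the control of overexpression. In ARP1, CHEK1 stood at 51.6 FPKM in the library labelled knockdown, against 61.0 in the control of knockdown, 114 in the overexpression library and 78.2 in the control of overexpression.

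Plasma cell genes were abundant in all 4 H929 libraries. SDC1, the plasma cell surface proteoglycan CD138, stood at 210.3 FPKM in the library labelled knockdown and at 156 to 207 in the other 3, and XBP1, a transcription factor of secretory cells, at 464 and at 425 to 483. SLAMF7, another plasma cell surface marker, was near 0 in H929, at 0.196 FPKM in the library labelled knockdown and 0.0778 to 0.201 in the others. Of 10 plasma cell markers 3, SDC1 included, were above all 3 others, 1 was below and 6 were inside. Over all genes 27.1% were above and 23.3% below. CD38 was the 1 below, at 17.8 FPKM against 21.3 to 28.6. IRF4 stood at 221 FPKM, against 202 in the control of knockdown and 370 and 455 in the overexpression library and its control. Of 10 markers of T and NK cells 1 passed the filter on low values, of 10 myeloid markers 2, and of 10 markers of stroma and epithelium 4. CD3D, CD3G, NKG7, LYZ, S100A8, S100A9, AIF1, LUM, EPCAM and KRT19 were listed at 0 in every H929 library. Summed over the markers that passed, T and NK cell markers stood at 0.587 FPKM in the library labelled knockdown and 1.40 to 14.2 in the others, myeloid markers at 1.70 and at 1.40 to 2.28, and markers of stroma and epithelium at 7.17 and at 10.4 to 17.1. The T and NK cell value is GNLY alone, and CD4, which did not pass, was highest in the library labelled knockdown. Among the stroma and epithelium markers KRT18 was lowest there, at 0.526 against 1.57 to 10.5. PDGFRB was highest, at 4.05 against 2.81 to 3.94, and COL1A1 and KRT8 lay inside the range. The share of these markers in other results was not tested. In bulk RNA, fewer cells of a kind and less RNA per cell cannot be told apart.

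The library labelled knockdown was not the one most often outside. Its 248 higher genes made up 1.66% of those compared and its 174 lower genes 1.17%. By the same rule the control of knockdown had 268 genes higher (1.8%) and 152 lower (1.02%) than the other 3 H929 libraries. The overexpression library had 169 higher (1.13%) and 295 lower (1.98%), and the control of overexpression 132 higher (0.886%) and 101 lower (0.678%). These counts share all their libraries and are not independent. In ARP1 the library labelled knockdown had 980 genes higher (6.57%) and 840 lower (5.64%). By any amount, 4036 genes lay above all 3 others in H929 (27.1%) and 3480 below (23.3%), against 4776 above (32%) and 5034 below (33.8%) in ARP1. At 2-fold, 80 genes were higher and 47 lower in H929.

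**Figure D1:**
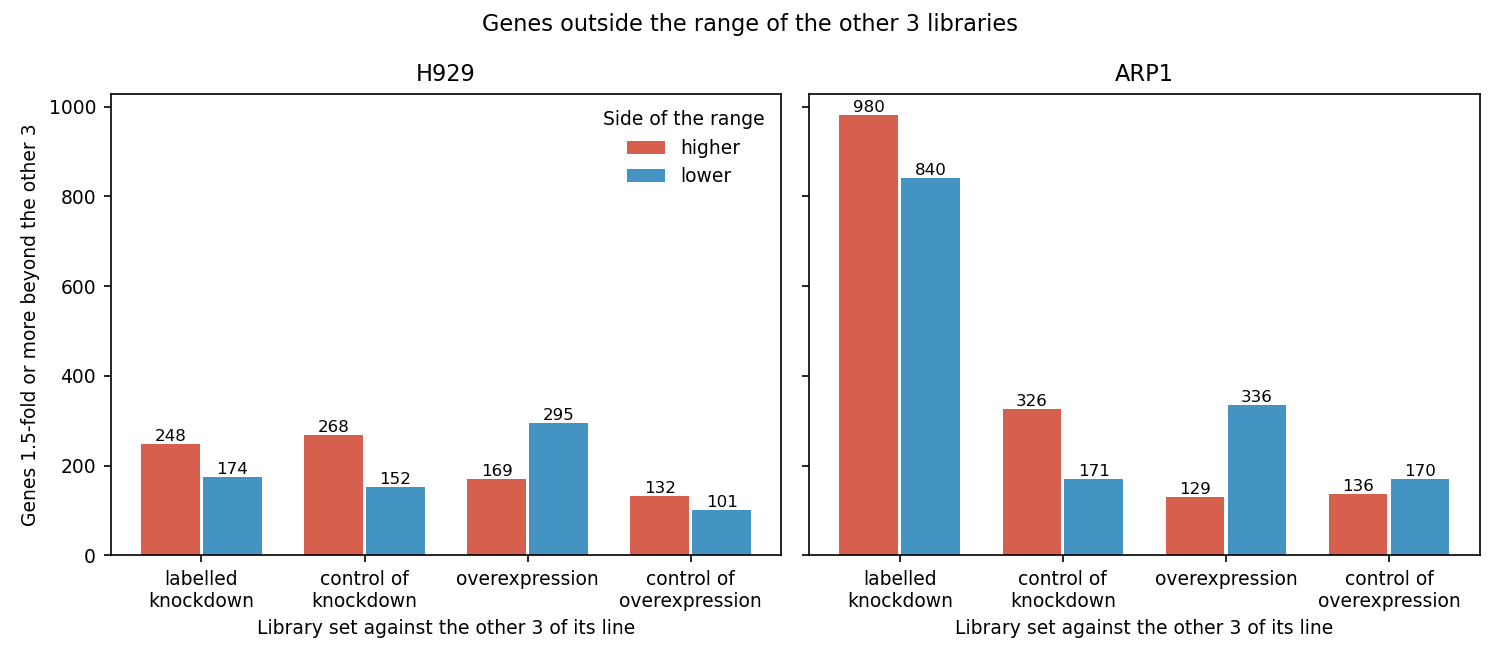
Number of genes at least 1.5-fold (FPKM plus 1) above or below the other 3 libraries of the same line, for each library in turn, with H929 left of ARP1 and the library labelled knockdown first in each line. In H929 the library labelled knockdown had 248 genes higher and 174 lower, close in size to the control of knockdown with 268 and 152, while in ARP1 it had 980 and 840.

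Low levels and noncoding genes made up much of the count. Of the 422 genes outside, 258 (61.1%) were not protein-coding, against 20.3% of all genes compared. Among protein-coding genes 107 were higher (0.901%) and 57 lower (0.48%), while of 167 small structural RNA genes classed as misc_RNA 23 were higher (13.8%) and 11 lower (6.59%). Of genes with a mean below 2 FPKM in H929, 3.57% were higher and 2.21% lower, against 0.213% and 0.107% of genes with a mean of at least 100 FPKM. Without transcripts shorter than 300 nt, 62 of the 422 genes were no longer outside, 46 of them among the higher and 16 among the lower. The nearest of the other 3 libraries was the control of knockdown for 131 of the higher genes (52.8%) and for 73 of the lower (42%). Higher genes listed at 0 in all of the other 3 had no single nearest library and were counted to the control of knockdown. The 131 therefore overstates how often that library was nearest. For 180 higher genes (72.6%) and 123 lower genes (70.7%) the distance to the nearest library was larger than the whole spread of the other 3. The genes outside were spread over the nuclear chromosomes, with 0.599% of compared genes higher on chromosome 21 and 2.5% on chromosome 18.

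Of the lists, that of ATF4 stress factors and targets had the most genes outside. Of 25 genes listed 22 were compared, and 10 were outside higher, 0 outside lower and 20 above all 3 other libraries by some amount. Over all genes these shares were 1.66%, 1.17% and 27.1%. The median log2 ratio of the 22 to the middle value of the other 3 was 0.63, against 0.01 over all genes. CHAC1, an enzyme that degrades glutathione, stood at 19.8 FPKM in the library labelled knockdown, against 3.59 in the control of knockdown, 2.66 in the overexpression library and 3.21 in the control of overexpression. The library labelled knockdown was alone at the high end, 4.53-fold above the nearest other library on the FPKM plus 1 scale, and the others lay within 1 FPKM of each other. INHBE, a subunit of activin E, held 10.4 FPKM in the library labelled knockdown, against 1.91, 1.38 and 1.56 in the control of knockdown, the overexpression library and the control of overexpression. SESN2, a leucine sensor that restrains mTORC1, held 25.9 FPKM, against 7.86, 5.76 and 6.57 in the same 3 libraries. Both were thus about as low in the overexpression arm (the overexpression library and its control) as in the control of knockdown, and the distances to the nearest library were 3.92-fold and 3.04-fold.

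CTH, which makes cysteine from cystathionine, stood at 32.0 FPKM in the library labelled knockdown, against 9.79 in the control of knockdown, 8.11 in the overexpression library and 8.88 in the control of overexpression, a distance of 3.06-fold. ATF3, a stress-induced transcription factor, held 15.2 FPKM, against 3.70 in the control of knockdown, 3.70 in the overexpression library and 5.20 in the control of overexpression. JDP2, a repressor of AP-1, held 20.5 FPKM, against 6.47, 2.44 and 2.20 in these libraries. For JDP2 the control of knockdown was also above the overexpression arm, so the gene was graded rather than high in 1 library alone. GPT2, an alanine aminotransferase, CEBPB, a partner factor of ATF4, ERN1, which encodes the stress sensor IRE1, and STC2, a secreted glycoprotein, were the other members outside. Their distances were 2.18-fold for GPT2 and log2 0.78, 0.65 and 0.59 for CEBPB, ERN1 and STC2, and STC2 was no longer outside with a pseudocount of 5 or with median-ratio or quantile scaling.

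ATF4 itself was not outside. It stood at 377 FPKM in the library labelled knockdown, against 191 in the control of knockdown, 281 in the overexpression library and 258 in the control of overexpression, so that it was the highest of the 4 with a log2 distance of 0.42. TRIB3, a pseudokinase that feeds back on ATF4, held 28.8 FPKM, against 17.5 to 19.5 in the other 3, and DDIT3, the stress factor CHOP, held 11.7, against 7.32 to 9.51. These values too were highest in the library labelled knockdown and short of the 1.5-fold line. ATF5, a related stress factor, differed least among the members above all 3, at 17.1 FPKM against 15.2 to 17.0. TNFRSF10B, a death receptor, and VLDLR, a lipoprotein receptor, were the members inside the range.

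**Figure D2:**
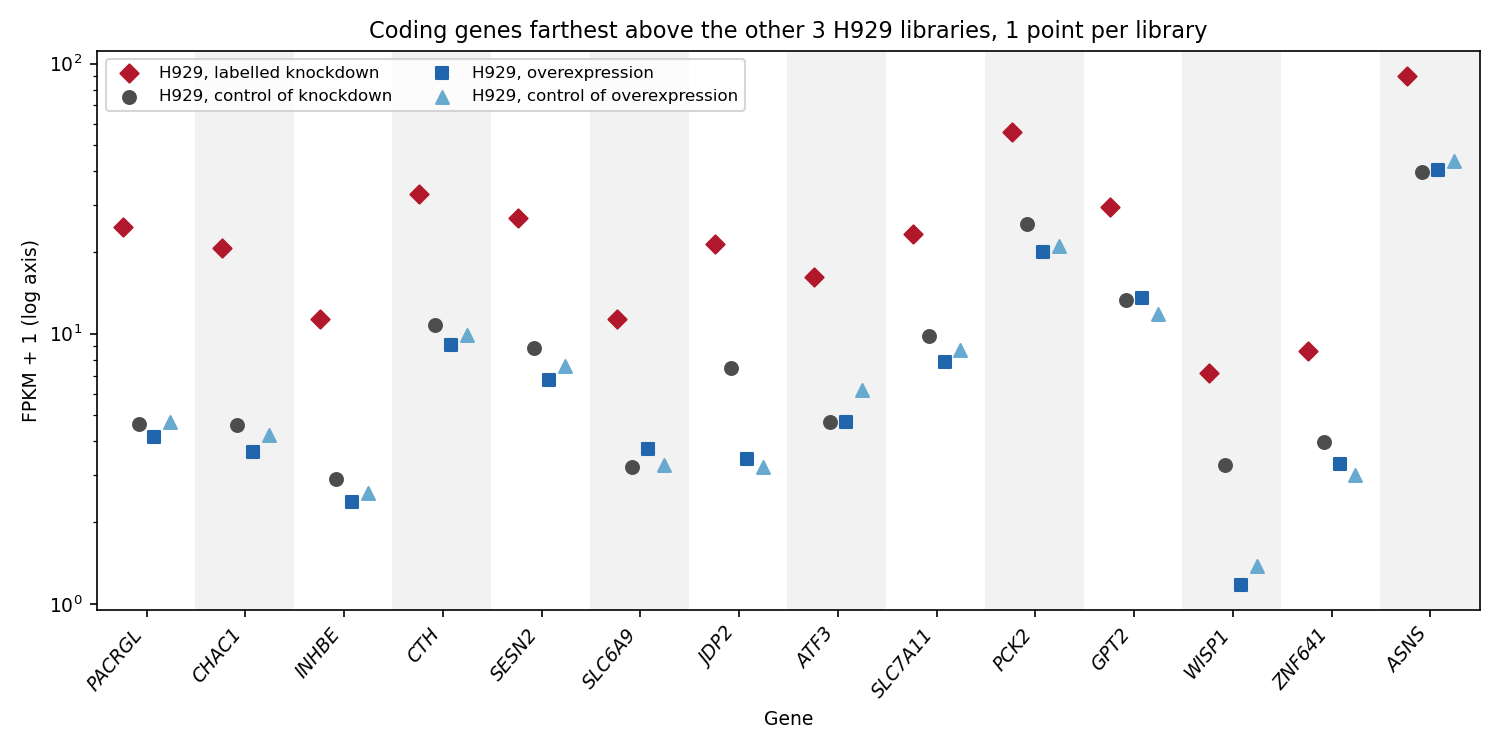
FPKM plus 1 on a log axis for the 14 protein-coding genes farthest above the range in the H929 library labelled knockdown, with 1 point per H929 library. The library labelled knockdown, drawn leftmost, lies above the other 3 in each, as in CHAC1 with 19.8 FPKM against 2.66 to 3.59.

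Promoters were read because these genes were high together and ATF4 is known to bind, with C/EBP partners, a composite element. The letters TGATGNAA were searched on both strands from 250 bases before to 50 bases after the start in RefSeq promoters on GRCh38.p14, where 9959 of the 14905 genes had one. They occurred in 176 of these (1.77%). Of the 107 protein-coding genes outside higher 74 had a promoter and 7 held the letters (9.46%), of the 57 outside lower 40 had one and 3 held them (7.5%), and of all 9443 protein-coding promoters 159 did (1.68%). GAANNTTC, TGACNNNGC and CCAAT occurred in 8.11%, 12.2% and 35.1% of the 74, against 4.64%, 15.2% and 37.1% of the 9443. The higher genes with TGATGNAA were CHAC1, ATF3, ASNS, MRPL55, TAS2R38, DNASE2 and BCL6, and the lower ones KLRG1, SGO2 and PMCH. The stretches around the match are shown for the 3 that also belong to the lists of stress and amino acid genes, written 5′ to 3′ on the gene's own strand with the matched letters in capitals. CHAC1 carries them in reverse complement, at -209 to -202 from the start (chr15:40953222-40953309, plus strand). ATF3 carries them at -191 to -184 (chr1:212565176-212565263, plus strand). ASNS carries them at -68 to -61 (chr7:97872429-97872516, minus strand), where a match of GAANNTTC overlaps. A match describes letters and is not evidence of binding.
CHAC1: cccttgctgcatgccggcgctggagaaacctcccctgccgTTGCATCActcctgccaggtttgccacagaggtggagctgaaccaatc
ATF3: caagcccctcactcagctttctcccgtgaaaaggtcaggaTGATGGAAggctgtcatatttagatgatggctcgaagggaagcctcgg
ASNS: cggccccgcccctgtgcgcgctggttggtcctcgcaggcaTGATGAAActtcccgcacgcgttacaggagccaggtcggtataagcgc

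Enzymes of serine, glycine, asparagine and one-carbon metabolism formed the next group. All 17 listed were compared, with 5 outside higher, 0 outside lower and 13 above all 3, beside 1.66%, 1.17% and 27.1% of all genes. Their median log2 ratio to the middle value was 0.44. ASNS, asparagine synthetase, stood at 88.8 FPKM in the library labelled knockdown, against 38.8 in the control of knockdown, 39.4 in the overexpression library and 42.5 in the control of overexpression. PHGDH, which commits a glycolytic intermediate to serine synthesis, held 79.1 FPKM, against 44.1, 33.1 and 36.7 in these libraries. PSAT1, the second enzyme of that route, held 139 FPKM, against 56.4, 70.2 and 64.8. In each of these genes the library labelled knockdown was highest, at 2.07-fold, 1.77-fold and 1.96-fold from the nearest, and the other 3 lay closer to each other than to it.

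PSPH, the last enzyme of serine synthesis, and ALDH1L2, a mitochondrial folate enzyme, were outside at log2 distances of 0.62 and 0.75, ALDH1L2 not with a pseudocount of 5. The mitochondrial folate enzymes MTHFD2 and SHMT2 were above all 3 without being outside, MTHFD2 at 181 FPKM against 119.9 to 134 and SHMT2 at 191 against 124 to 166. The cytosolic enzymes MTHFD1 and SHMT1 lay inside the range, at 101 FPKM against 98.3 to 109 and at 21.5 against 20.7 to 35.7. PCK2, mitochondrial phosphoenolpyruvate carboxykinase, is in none of the lists and stood at 55.0 FPKM in the library labelled knockdown, against 24.4 in the control of knockdown, 19.0 in the overexpression library and 20.1 in the control of overexpression.

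Amino acid transporters were divided. Of 15 compared, 4 were outside higher, 8 were above and 2 below all 3, beside 1.66%, 27.1% and 23.3% of all genes. The median log2 ratio was 0.11. SLC7A11, the cystine-glutamate exchanger, stood at 22.4 FPKM in the library labelled knockdown, against 8.80 in the control of knockdown, 6.84 in the overexpression library and 7.73 in the control of overexpression. SLC6A9, a glycine transporter, held 10.4 FPKM, against 2.22, 2.74 and 2.26. SLC38A2 and SLC1A4, carriers of neutral amino acids, held 130.1 and 52.1 FPKM, against 59.5 to 76.9 and 27.5 to 30.9 in the other 3. All 4 separated from the other libraries, SLC6A9 by the most at 3.03-fold. SLC3A2, the shared heavy chain of SLC7A11 and SLC7A5, did not follow: it held 321 FPKM in the library labelled knockdown and 222, 419 and 472 in the control of knockdown, the overexpression library and the control of overexpression.

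Cytosolic tRNA synthetases, which load amino acids onto transfer RNA, were divided too. Of 20 compared, 2 were outside higher and 0 lower, beside 1.66% and 1.17% of all genes. By any amount, 10 were above all 3 and 3 below, beside 27.1% and 23.3% of all genes, and 7 were inside. The median log2 ratio was 0.26. GARS, the glycine enzyme, stood at 137 FPKM in the library labelled knockdown, against 65.5 in the control of knockdown, 81.3 in the overexpression library and 84.3 in the control of overexpression. CARS, the cysteine enzyme, held 35.5 FPKM, against 17.1, 21.3 and 21.0. MARS, the methionine enzyme, reached a log2 distance of 0.57, short of the line. TARS was inside the range through 1 other library, since the control of knockdown listed it at 883 FPKM. The library labelled knockdown held 112 and the overexpression arm 86.8 to 95.2. RARS too was high in the control of knockdown, at 529.8 FPKM. The library labelled knockdown was lowest for RARS, at 49.9 against 57.2 to 61.1 in the overexpression arm.

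Over these 4 lists, grouped after their values were seen, 74 genes were compared, and 21 were outside higher in the library labelled knockdown and 0 lower, beside 1.66% and 1.17% of all genes. They made up 19.6% of the 107 protein-coding genes outside higher. In the control of knockdown 2 of the 74 were outside higher and 2 lower, in the overexpression library 1 and 0, and in the control of overexpression 0 and 0. By any amount, the library labelled knockdown was above all 3 others for 51 of the 74, beside 27.1% of all genes. The control of knockdown was below all 3 others for 37 of the 74, beside 3521 of all 14905 genes. Members outside higher were mixed in this respect. In ASNS, PSAT1, GARS and CARS, for example, the control of knockdown was the lowest H929 library. In CHAC1, INHBE, CTH, SESN2, JDP2, SLC7A11, PHGDH, SLC38A2 and SLC1A4 it was the next highest after the library labelled knockdown.

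Among the remaining protein-coding genes farthest above the range, part rested on single short transcripts. PACRGL, a relative of the Parkin co-regulated gene, stood at 23.8 FPKM in the library labelled knockdown, against 3.64, 3.13 and 3.71 in the control of knockdown, the overexpression library and the control of overexpression. Of this, 17.6 FPKM came from the transcript PACRGL-212 of 223 nt, which was listed at 0 in the other 3, and without short transcripts the log2 distance was 0.62 in place of 2.40. ZNF641, a zinc finger gene, held 7.61 FPKM, against 2.97 in the control of knockdown, the highest of the other 3, and 4.28 of this came from ZNF641-204 of 315 nt, also at 0 in the others, and with FPKM weighted by length the gene was not outside. WISP1, a secreted matricellular protein, held 6.13 FPKM, against 2.27 in the control of knockdown and 0.175 and 0.384 in the overexpression library and the control of overexpression.

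Some B cell and immediate early genes were outside as well. Of 17 plasma cell and B cell factors compared, 2 were outside higher and 0 lower, beside 1.66% and 1.17% of all genes. MEF2B, a transcription factor of germinal centre B cells, stood at 5.56 FPKM in the library labelled knockdown, against 1.99 in the control of knockdown, 1.66 in the overexpression library and 2.45 in the control of overexpression. BCL6, the germinal centre repressor, held 2.02 FPKM, against 1.01, 0.0528 and 0.678, all of them low. The 15 other factors did not leave the range by 1.5-fold, PRDM1, the master regulator of plasma cells, being at 173 FPKM against 155 to 176. Of 22 immediate early genes JUN, a component of AP-1, was outside higher at 41.1 FPKM against 26.6, 14.2 and 9.10, and IER3, a survival gene, outside lower at 6.65 against 16.6, 11.2 and 13.0. With a pseudocount of 5, MEF2B, BCL6, JUN and IER3 were not outside, and BCL6 was not with median-ratio scaling either. LAIR1, an inhibitory collagen receptor, ADM2, a peptide hormone, and EIF4EBP1, which restrains translation, were picked out after their values were seen, at log2 distances of 0.96, 0.87 and 0.71.

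The lists of protein folding and degradation lay to the other side by median, without any member outside. Over all genes 1.17% were outside lower, and in lists of this size 0 is near that share. By any amount, 23.3% of all genes were below all 3 and 27.1% above. Of 19 heat shock chaperones 11 were below all 3 and 1 above, with a median log2 ratio of -0.26. HSPA8, the constitutive chaperone of the cytosol, stood at 819 FPKM in the library labelled knockdown, against 1046 in the control of knockdown, 1484 in the overexpression library and 1316 in the control of overexpression. Of 24 genes for chaperones and degradation of the endoplasmic reticulum 13 were below and 3 above, with a median of -0.20. HSPA5, the chaperone BiP, held 169.9 FPKM, against 244, 269.9 and 245, and HSP90B1, its partner GRP94, 297 against 387, 466 and 412. These chaperones were thus lowest in the library with the highest ATF4 target levels, while ERN1 was highest there and XBP1, whose messenger IRE1 splices, was inside the range. HERPUD1, which aids degradation of misfolded protein, was among the 3 above, at 70.9 FPKM against 45.0 to 59.6.

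Genes of the checkpoint pathway did not leave the range of the other libraries by 1.5-fold. Of 28 genes of the ATR-CHK1 pathway and of entry into mitosis 0 were outside, beside 1.66% higher and 1.17% lower of all genes. In a list of this size 0 is near that share. By any amount, 5 were above all 3 and 11 below, beside 27.1% and 23.3% of all genes. The median log2 ratio was -0.07. CDK1, the kinase that drives mitosis, stood at 62.6 FPKM in the library labelled knockdown, against 83.4 in the control of knockdown, 85.9 in the overexpression library and 78.2 in the control of overexpression. TIPIN, a protein of the replication fork, held 21.0 FPKM, against 28.7, 39.2 and 36.1. Both were lowest in the library labelled knockdown, by log2 distances of -0.32 and -0.44. Lists of mitosis (34 genes), DNA replication (33), recombination and Fanconi anaemia (24) and p53 targets (19) also had 0 genes outside, again near the share of all genes. Their medians lay between -0.03 and 0.13. Of 13 genes of the BCL2 family 0 were outside, BBC3, the cell death gene PUMA, coming nearest at 3.76 FPKM against 1.96 to 2.18.

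Among other lists the median log2 ratio was -0.36 over 25 MYC targets and ribosome biogenesis genes, -0.25 over 22 cholesterol genes, -0.08 over 31 proteasome subunits and 0.17 over 17 NRF2 targets. Each had 0 genes outside, near the share of all genes. MHC class I presentation had 7 of 15 genes above all 3, beside 27.1% of all genes, and a median of 0.26. HLA-F stood at 23.2 FPKM in the library labelled knockdown, against 18.2 in the control of knockdown, 8.86 in the overexpression library and 13.7 in the control of overexpression. Both libraries of the knockdown arm were above both of the overexpression arm in this gene.

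**Figure D3:**
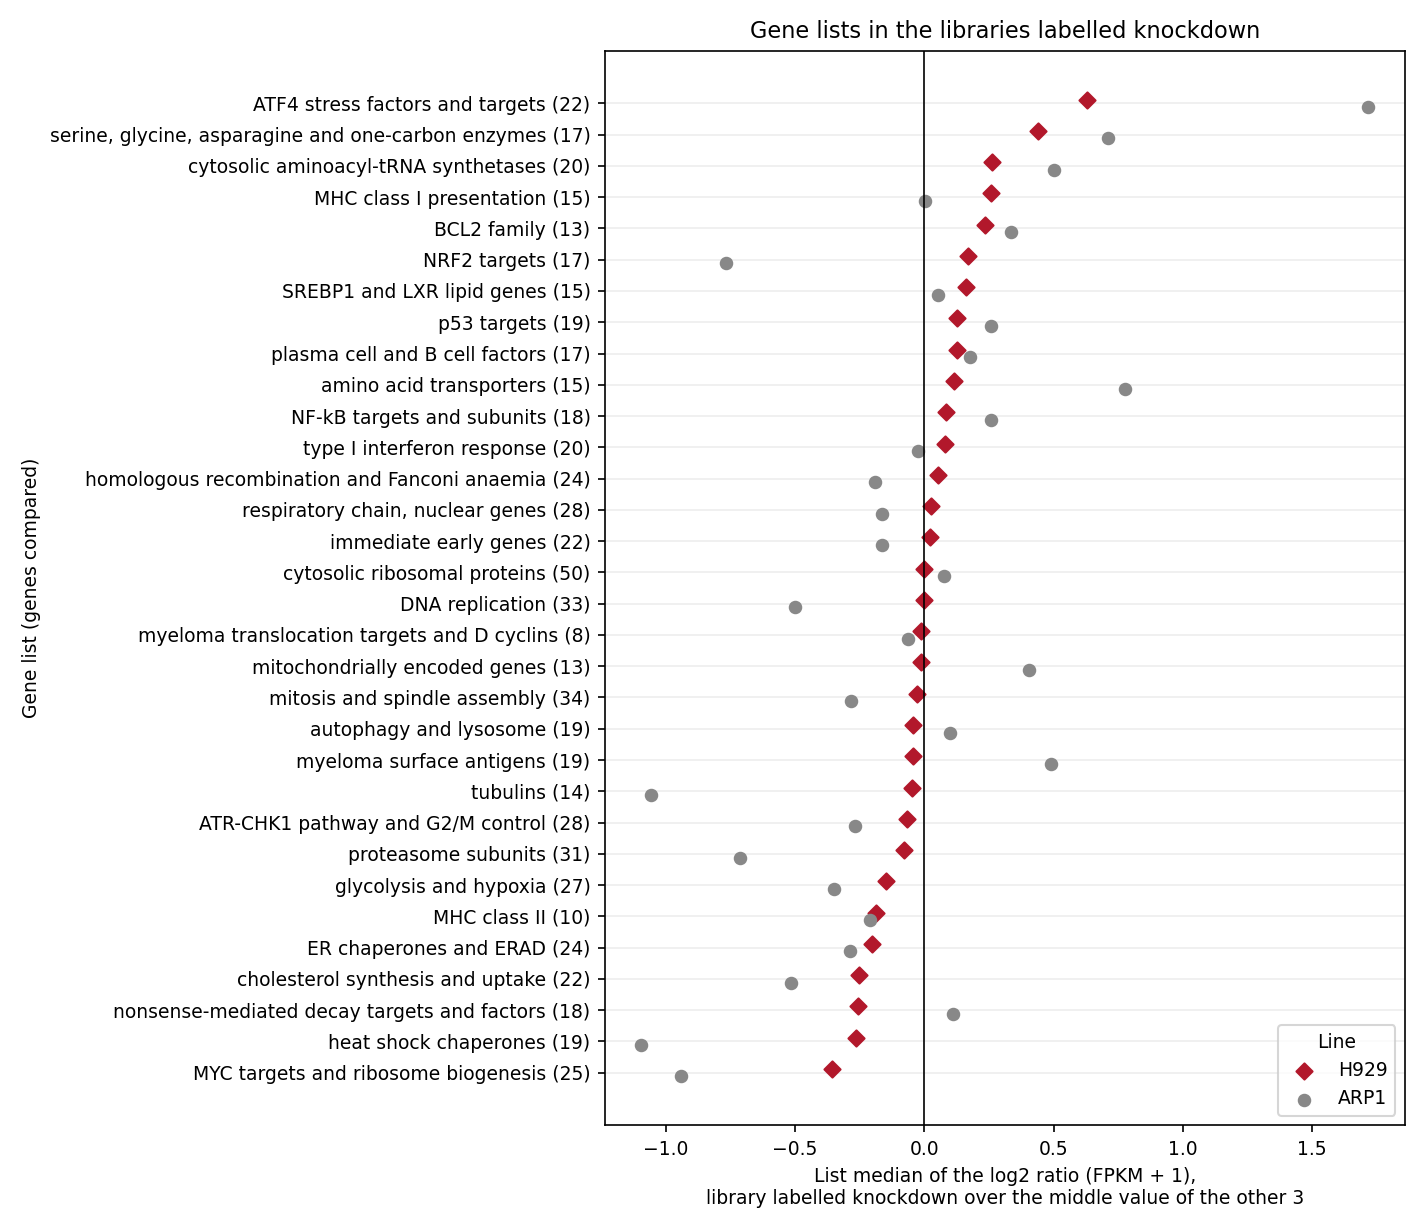
Median over each gene list of the log2 ratio (FPKM plus 1) of the library labelled knockdown to the middle value of the other 3 libraries of its line, with H929 and ARP1 as separate points. The ATF4 list has the highest H929 median, 0.63, and in ARP1 its median is 1.72, while heat shock chaperones lie at -0.26 and -1.09.

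None of the lists had more than 1 gene among the lower ones, and several lower genes were also graded between the arms. IFITM2, an interferon-induced membrane protein, stood at 4.54 FPKM in the library labelled knockdown, against 13.0 in the control of knockdown, 29.7 in the overexpression library and 13.2 in the control of overexpression. CCR9, a chemokine receptor of gut homing, held 0.641 FPKM, against 2.88, 3.65 and 6.50. LZTFL1, which acts in transport to the cilium, held 24.0 FPKM, against 47.9, 98.8 and 145. The library labelled knockdown was lowest in each, and for LZTFL1 the control of knockdown was the next lowest with the overexpression arm well above. TM9SF3, a membrane protein of the Golgi, held 41.6 FPKM, against 82.8, 131 and 122, and its 868-nt transcript TM9SF3-202 held 0.642, against 34.0, 67.7 and 60.9. Its longer transcript TM9SF3-201 was closer, at 40.9 FPKM against 48.8 to 63.8. LSM5, a component of a ring that binds spliceosomal RNA, showed the same, with LSM5-202 at 0.883 FPKM against 11.6 to 19.1.

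RAC3, a small GTPase, was nearly level in the other 3, with 7.20 FPKM in the library labelled knockdown against 13.6 in the control of knockdown, 13.3 in the overexpression library and 13.6 in the control of overexpression. RTKN2 held 2.40 FPKM, against 5.06, 5.58 and 4.89, and MAP3K8, a kinase upstream of ERK, 4.24 against 8.19, 9.75 and 10.4. These 3 were low in the library labelled knockdown alone. NAPSA, an aspartic protease, DMKN and KRT18, genes known from epithelia, NRG2, a growth factor, and HEY1, a NOTCH target, were also among the 14 farthest below, at log2 distances of -0.74 to -0.86. KRT18 and GNLY, fixed as markers of other cell types, were highest in the overexpression library, at 10.5 and 14.2 FPKM, and stood at 0.526 and 0.587 in the library labelled knockdown. COMMD3-BMI1, a read-through of neighbouring genes, held 1.24 FPKM, against 2.65, 36.8 and 36.5. Its reads cannot be told apart from those of COMMD3 and BMI1. With a pseudocount of 5, CCR9, DMKN, NRG2, MAP3K8, RTKN2, KRT18, HEY1, GNLY and COMMD3-BMI1 were not outside, and with FPKM weighted by length TM9SF3, LSM5, DMKN, MAP3K8 and GNLY were not.

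**Figure D4:**
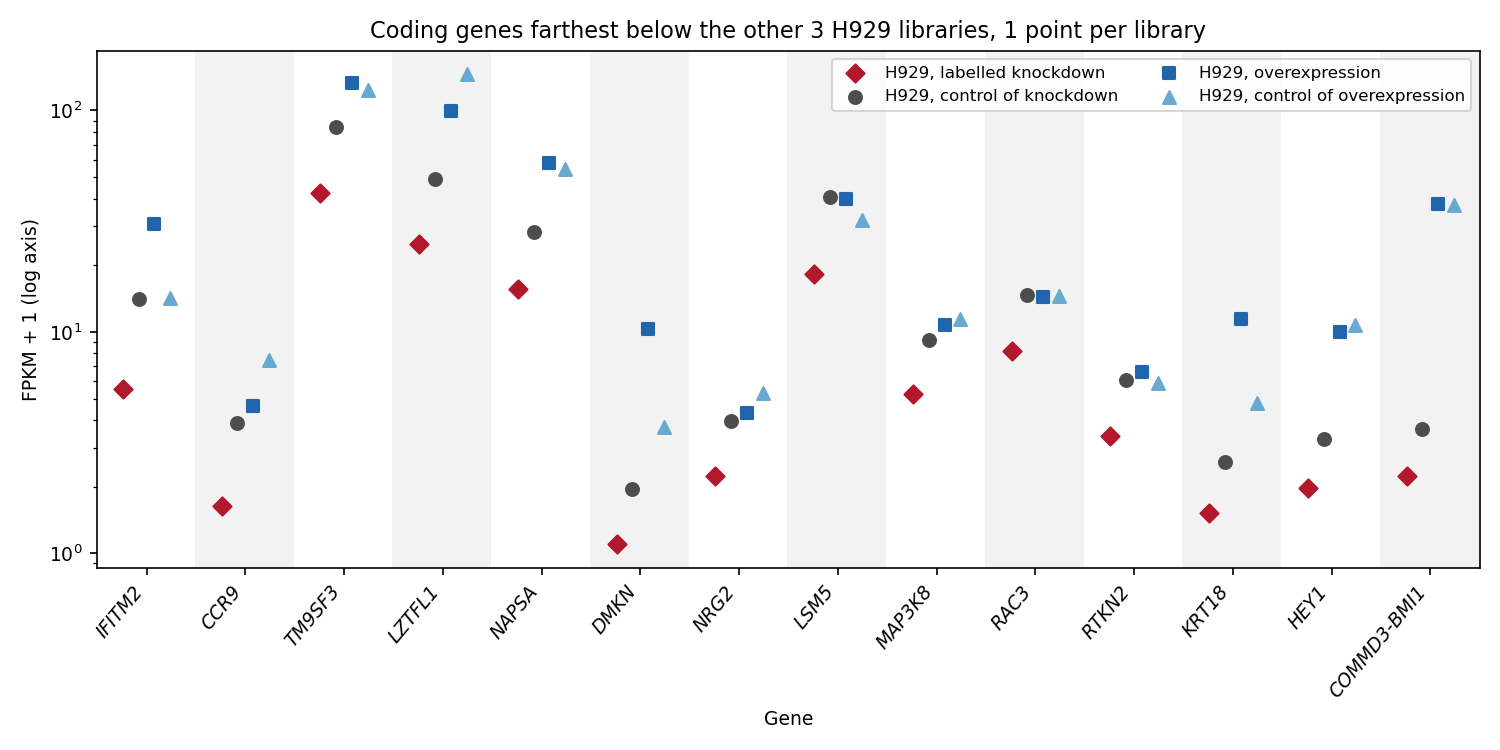
FPKM plus 1 on a log axis for the 14 protein-coding genes farthest below the range in the H929 library labelled knockdown, with 1 point per H929 library. RAC3 sits at 7.20 FPKM in the library labelled knockdown with the other 3 at 13.3 to 13.6, while LZTFL1 is spread from 24.0 to 145.

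Among noncoding genes with an official symbol, the 3 farthest outside on each side rested on short transcripts; some genes with clone names lay farther. LINC02100, a long intergenic RNA, stood at 17.7 FPKM in the library labelled knockdown and was listed at 0 in the other 3. RN7SL834P and RN7SL16P, copies of the signal recognition particle RNA, held 11.9 and 6.26 FPKM with 0 in the other 3. In the opposite direction, RN7SL75P, RN7SL329P and SNHG9, the host of a small nucleolar RNA, were listed at 0 in the library labelled knockdown and at 5.95 to 9.79, 3.80 to 9.53 and 5.75 to 16.9 FPKM in the others. All 6 rested on transcripts under 300 nt, and copies of this RNA share reads, so their values are uncertain. Of the higher genes 179 (72.2%) overlapped another annotated gene, as did 148 of the lower (85.1%) and 73.9% of all compared. The labels do not say whether reads were counted by strand, so those of overlapping genes cannot be told apart.

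ARP1, whose libraries the H929 rule did not use, gave the higher genes again more often than the lower. Of the 248 genes outside higher in H929, 81 were outside higher in ARP1, which is 32.7% of the H929 list and 8.27% of the ARP1 list, beside 6.57% of all genes. Another 6 (2.42%) were outside lower in ARP1. The filter on low values reads the libraries labelled knockdown, so a gene near 0 in the others can pass through them alone. With a filter on the 6 other libraries, 195 genes were outside higher in H929 and 62 of them in ARP1 (31.8% of the H929 list and 7.22% of the ARP1 list), beside 5.97% of the 14395 genes then compared. Over the 248 genes, the median log2 ratio to the middle value in ARP1 was 0.55, against -0.01 over all genes. Of the 107 coding genes 49 (45.8%) were outside higher in ARP1, 46 of 95 with that filter. All 21 members of the 4 amino acid and ATF4 lists that were outside in H929 were among the 49. These lists were chosen with earlier results of these data known, so the 21 are not independent support. Of the 174 lower genes 11 (6.32% of the H929 list and 1.31% of the ARP1 list) were outside lower in ARP1, beside 5.64% of all genes, and 9 (5.17%) were outside higher. Their ARP1 median was 0.01. The lower genes of H929 were therefore outside in ARP1 at about the share of all genes.

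In ARP1 the ATF4 list had 19 of 22 genes outside higher, beside 6.57% of all genes, and a median log2 ratio of 1.72. For CHAC1 the ARP1 library labelled knockdown listed 63.9 FPKM, against 12.4 in its control of knockdown, 6.75 in the overexpression library and 3.90 in the control of overexpression. INHBE held 80.9 FPKM in ARP1, against 10.8, 5.54 and 3.19, a level well above the 10.4 FPKM of H929. SESN2 held 117 FPKM, against 23.6, 11.5 and 8.57. These ARP1 controls were more graded than those of H929, with the control of knockdown above the overexpression arm. Heat shock chaperones had 12 of 19 genes outside lower in ARP1 and proteasome subunits 15 of 31, at medians of -1.09 and -0.71. Both lists had 0 outside in H929. Over all genes 5.64% were outside lower in ARP1 and 1.17% in H929, so 0 in lists of this size is near the H929 share. Of the 14 lower coding genes named by distance, 0 were outside lower in ARP1, and of all 57 lower coding genes 5 (8.77%). This stands beside 715 of the 11878 coding genes compared, a share near both counts. The 5 were METRNL, a secreted factor, MET, the receptor of hepatocyte growth factor, and ENAH, an actin regulator, with RAB3A and SMIM4. RAB3A is a GTPase of exocytosis, and SMIM4 acts in assembly of the respiratory chain. MET stood at 2.90 FPKM in the H929 library labelled knockdown, against 5.02 in the control of knockdown, 5.75 in the overexpression library and 5.97 in the control of overexpression, and these genes were picked out after their values were seen.

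**Figure D5:**
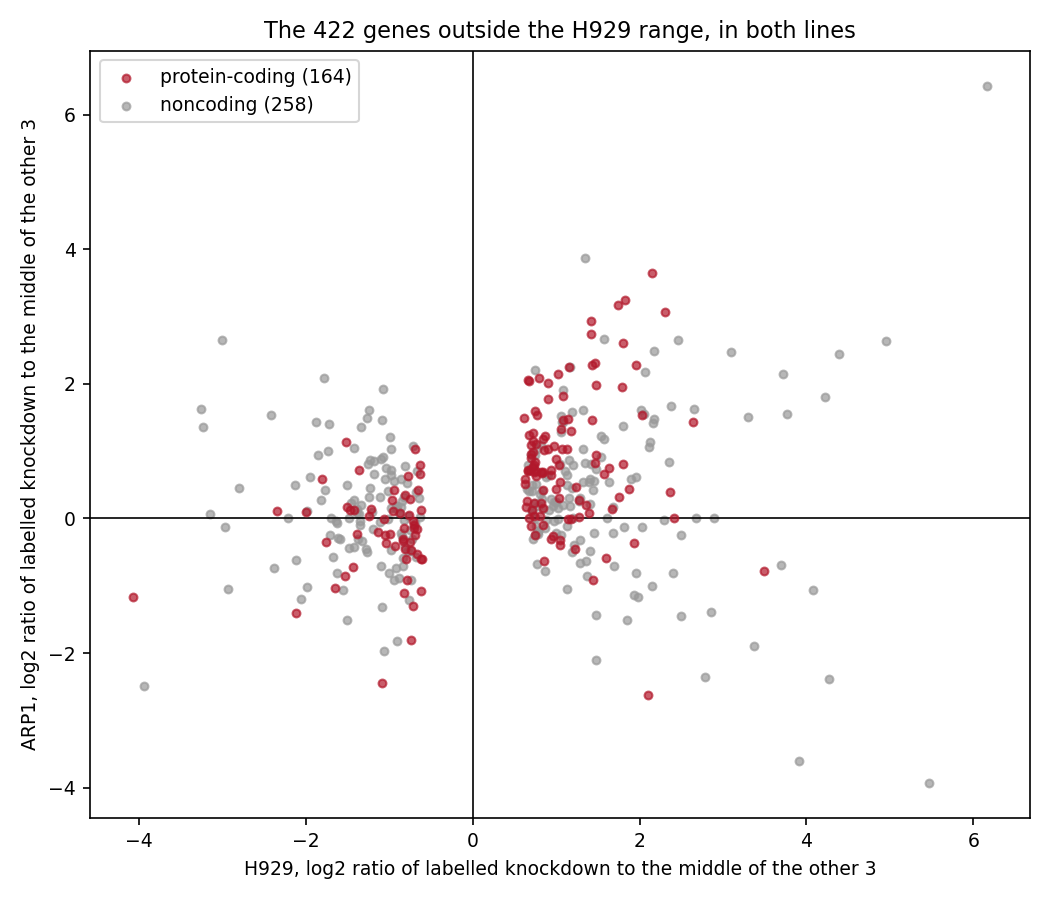
For the 422 genes outside the H929 range, the log2 ratio (FPKM plus 1) of the library labelled knockdown to the middle value of the other 3 libraries, in H929 on the horizontal and in ARP1 on the vertical axis, with protein-coding genes in red and noncoding genes in grey. Of the 248 higher genes 81 are also outside higher in ARP1, while of the 174 lower genes 11 are also outside lower.

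Close to the 1.5-fold line, STC2 at 16.7 FPKM against a highest other value of 10.8 and BBS1, a ciliary protein, at 4.30 against 2.52 were just outside. YPEL3, a growth suppressor, at 17.3 FPKM against 11.2 and CABLES1, a regulator of cyclin-dependent kinases, at 5.93 against 3.62 were just inside. Among lower genes METRNL at 7.60 FPKM against a lowest other value of 11.9 and ARHGAP26 at 1.91 against 3.36 were just outside. S1PR1, a sphingosine receptor, at 0.928 FPKM against 1.89 and FZD7, a WNT receptor, at 2.16 against 3.74 were just inside.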

How the data were processed

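Total RNA of 8 libraries was selected for poly(A) and sequenced as paired ends, per the labels' protocols, which also mention adipose tissue; that text was not used. The authors deposited FPKM per transcript, called means in the table, and the number of runs behind a column is not stated. Bowtie 0.12.2, HISAT2 2.0, StringTie 1.3.0 and the mouse build mm8 are named per the submitters' processing notes. Because the identifiers are of human transcripts, mm8 cannot be the build behind them; the human one is not stated. Read depth is unknown, so no counting error was worked out, and 24.6% of H929 values were 0.

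Of 88209 transcripts 87707 were matched to genes of GENCODE release 29 (GRCh38), and the remaining 502 were not used. Summing FPKM over a gene's transcripts gave 24351 genes, of which those reaching an FPKM of 1 in 2 or more of the 8 libraries were compared (14905, 11878 of them protein-coding). Levels were taken as log2 of FPKM plus a pseudocount of 1, which understates ratios of low genes. The distance is the log2 difference to the nearest of the other 3 libraries of the line, and 0 inside their range. A gene was outside at a distance of log2 0.585 (1.5-fold) or more. Within H929 each group has 1 library, so no test was made.

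Named genes were CHEK1, the 14 protein-coding genes farthest above and below with an official symbol, a mean of at least 2 FPKM in H929 and a distance that does not rest on transcripts under 300 nt alone, the 3 noncoding genes with an official symbol farthest each way, up to 4 outside members of each of 36 gene lists, and the 2 genes on either side of the threshold. Further list members are named to account for a list. The members and lists were chosen with earlier results of these data known. Alternatives were other pseudocounts, filters, scalings, thresholds and transcript rules, and each other H929 library left out. The counting was checked on simulated data. Python 3.11.15, pandas 2.3.3, numpy 2.4.6 and matplotlib 3.10.9 were used.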

Additional observations from a re-analysis of the deposited data

Results flagged for a closer look

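RN7SL75P, a copy of the signal recognition particle RNA, differed in direction between the lines. It was listed at 0 in the H929 library labelled knockdown, against 9.79 FPKM in the control of knockdown, 5.95 in the overexpression library and 7.00 in the control of overexpression, a log2 distance of -2.80. In ARP1 it stood at 5.29 FPKM in the library labelled knockdown, against 0, 0 and 1.66 in these libraries, a log2 distance of 1.24. The difference between the lines was not tested.

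In all, 15 genes were outside in H929 and outside the opposite way in ARP1, 6 of them higher and 9 lower in H929. Most are noncoding, and the coding genes among them are ZNF720, at 4.15 FPKM in the H929 library labelled knockdown against 7.20 to 8.92 in the other 3, and AC026464.4. In ARP1 ZNF720 stood at 13.8 FPKM in the library labelled knockdown, against 5.93 to 7.67 in the other 3. These differences were not tested.

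The table also lists 402 transcripts under names starting with LNC_ that belong to no annotated gene and entered no comparison. Of these 180 passed the filter on low values, and 5 were outside higher and 4 outside lower in the H929 library labelled knockdown. Among the genes compared 1.66% were outside higher and 1.17% outside lower.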

How the results depend on the processing

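Over the alternatives the H929 counts, 248 higher and 174 lower by the rule as reported, depended on the pseudocount, the filter, the threshold and the unit counted, and stayed within 1.5 times under 3 scalings, without transcripts under 300 nt and with FPKM weighted by transcript length. The counts were 463 and 394 with a pseudocount of 0.1, 80 and 25 with 5, and 111 and 72 with FPKM of at least 5. Without a filter 385 were higher and 185 lower. At 2-fold they were 80 and 47, and at the lower of the alternative thresholds 771 and 536. Counted by transcript they were 1340 and 1409, and for protein-coding genes alone 107 and 57. Leaving out 1 other H929 library gave 360 to 842 higher and 253 to 494 lower, fewer libraries making a narrower range. Without the control of knockdown the counts were 842 and 494, and without the overexpression library 271 were lower. Settings chosen after seeing the data gave 98 and 57 (coding, without short transcripts), 24 and 14 (mean FPKM of at least 20) and 195 and 171 (filter on the libraries not labelled knockdown). In ARP1, 447 were higher and 440 lower with a pseudocount of 5, 2305 and 2637 by transcript, and 594 coding genes were higher. Added after seeing the data, ARP1 counts were 323 and 179 at 2-fold and 2054 and 2097 at the lower threshold, and 501 were higher with FPKM of at least 5. Leaving out 1 other ARP1 library gave 1158 to 1582 higher and 1075 to 1394 lower, both highest without the control of knockdown.

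Of 50 named genes outside, 29 were outside under every setting run for them, 21 were not under at least 1, and 0 turned direction. Several settings could not end a call. Other filters and coding genes alone leave a distance unchanged. A pseudocount of 0.1 or leaving out a library can only keep or widen it. Coding genes named by distance were also chosen to be outside without transcripts under 300 nt. The tally thus rests on a pseudocount of 5, the scalings, the length weighting and, for other coding genes, removal of short transcripts. The 29 include the noncoding LINC02100, RN7SL834P, RN7SL16P, RN7SL75P, RN7SL329P and SNHG9. These rest on transcripts under 300 nt and drop out of the setting without such transcripts, so that setting was not run for them. With FPKM weighted by transcript length ZNF641, TM9SF3, LSM5, MAP3K8, DMKN, GNLY, BBS1, ARHGAP26 and METRNL were not outside. With a pseudocount of 5 all of the 21 but ZNF641, TM9SF3 and LSM5 were not. Median-ratio scaling ended it for ARHGAP26, BBS1, BCL6, METRNL and STC2, quantile scaling for ARHGAP26, BBS1, GNLY and STC2, and scaling to the same total for BBS1. Other thresholds were not among the settings run for named genes. At 2-fold some of the 29 would not be outside, such as PHGDH at 1.77-fold and GARS at 1.62-fold, while CHAC1 at 4.53-fold would. Of the ATF4 list 7 to 15 genes were outside higher over the settings, here with the other thresholds, of the serine list 1 to 7, of the transporters 2 to 4 and of the tRNA synthetases 0 to 6. No paired analysis was possible because the comparison is within H929, where each genotype has 1 library, and the labels carry no replicate numbers. Depth is unknown, so low levels carry an error that could not be given.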
